A study of Mus musculus with 12 samples.

Results

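The SLC25 mitochondrial carriers were followed in livers of germ-free (GF) and conventionalized (CV) mice. The genes were chosen by name: every row whose symbol is Slc25a and a number, leaving out Slc25a1, Slc25a13, Slc25a15 and Slc25a20. This left 43 of the 47 SLC25 symbols among the 41128 genes of the table. All mice were C57BL/6 and 6 weeks of age. GF mice stayed in sterile isolators. CV mice left the isolators at weaning, on day 21, for cages with dirty bedding, which carries microbes, and were conventionalized for 3 weeks. Each condition held 3 males and 3 females by label, 12 libraries of liver RNA in all. The labels number 3 livers per group but name no litter, isolator or cage, so p-values measure the spread between these libraries, and housing cannot be told apart from condition.

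SLC25 proteins are the main solute carriers of the mitochondrial inner membrane. Most are built from repeats of the same fold and swap one metabolite of the matrix for another in the space outside it: ADP for ATP, malate for phosphate, aspartate for glutamate. In liver they link the matrix with urea synthesis, glucose production, lipid synthesis and the reduction of NAD in the cytosol. The carriers are made in the cytosol and enter the membrane through the TOM channel, the small TIM chaperones and the TIM22 complex. A few members sit elsewhere, such as Slc25a17 in the peroxisome and Slc25a46 in the mitochondrial outer membrane.

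Values are deposited read counts per gene divided by a size factor per library, called normalized counts below. The libraries held 5993619 to 15290835 reads. In GF libraries 41.8% to 69.4% of the reads fell in 7 abundant loci (mt-Rnr1, mt-Rnr2, Lars2, Mir6236 and 3 predicted genes), against 5.39% in CV male 1, 21.4% in CV male 2, 21.9% in CV male 3 and 5.75% to 7.96% in CV females. The hepatocyte marker Alb was abundant in every library, from 47020 to 278958 normalized counts. CV male 3 had 0 Y-linked reads, where the other libraries labelled male had 796 to 1314, and an Xist value of 2382, so it went against its label. The counts in males, and the male changes of several members that it moved, are therefore also given without it.

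The carriers spanned a wide range of levels. Per kilobase of exon, the mean normalized count over the 12 libraries was highest for Slc25a47, a carrier found mainly in liver, at 2306. Next came the ADP/ATP carrier Slc25a5 at 2105 and the glutathione carrier Slc25a39 at 830.0. The glutamate carrier Slc25a22 (378), the phosphate carrier Slc25a3 (367), the dicarboxylate carrier Slc25a10 (281) and the oxoglutarate carrier Slc25a11 (249) followed. The 3 members with the most reads took 57.3% of all reads of the 43 members. At the other end, Slc25a54 had 0 reads in every library, which allows up to 3 reads, and Slc25a41 had 1 read in all.

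**Figure D1:**
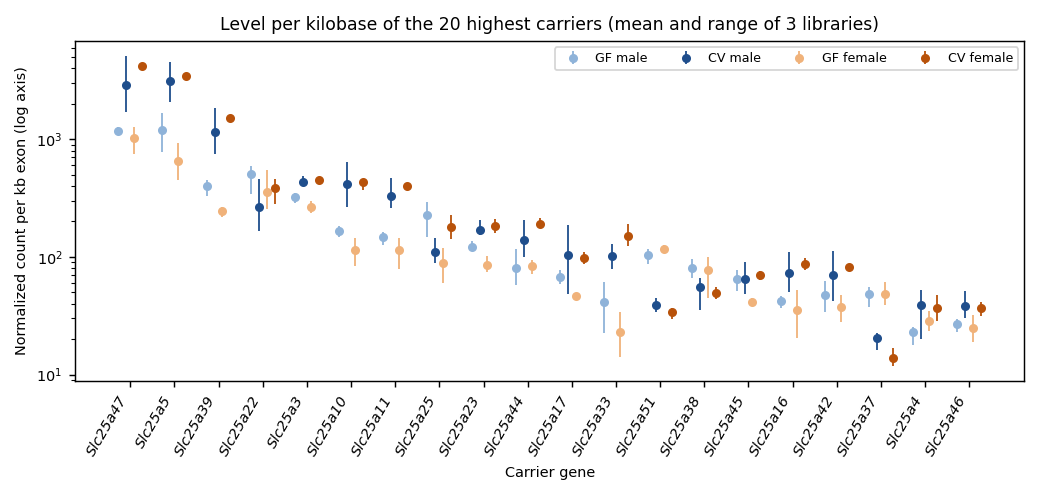
Level of the 20 highest carriers in normalized counts per kilobase of exon, on a log axis. Points are means of 3 libraries and bars run from the lowest to the highest library of each group. Slc25a47 and Slc25a5 stand at the top in all 4 groups, and the bars of CV males are the longest for many carriers.

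Of the 43 members, 34 had a mean of at least 10 normalized counts and were tested with limma among 11782 genes. The 9 left out were Slc25a2, Slc25a14, Slc25a18, Slc25a31, Slc25a35, Slc25a41, Slc25a43, Slc25a53 and Slc25a54. Some of these are known for tissues other than liver, such as testis (Slc25a31) or brain (Slc25a14 and Slc25a18). Slc25a18, a glutamate carrier, had 20 reads over the 6 GF libraries and 2 over the 6 CV libraries. Without the filter on low values limma called it lower in CV, by -2.14 in males (adjusted p = 0.022) and -2.34 in females (adjusted p = 0.0048), on the log2 scale. In that fit 1640 of 22953 genes were lower in males and 3606 in females, and none of the other members left out was called. The call rests on few reads: 4, 3 and 4 in GF males and 0, 1 and 0 in CV males. Slc25a43 had 14 reads and Slc25a31 had 12 reads over all libraries.

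In CV males 8 of the 34 tested members were higher than in GF males at an adjusted p under 0.05, where 14.1% of all genes tested were called higher. Another 3 were lower, where 15.4% of all genes were called lower. In females 18 members were higher in CV, where 29.8% of all genes were, and 4 were lower, where 26.0% of all genes were. The median log2 change of the tested members was 0.42 in males and 0.83 in females, beside 0.06 and 0.08 over all genes tested. Among genes of a mean of at least 50, 16 of 26 members were higher in CV females, where 38.5% of all such genes were, and 3 were lower, where 24.6% were. Without CV male 3, the counts in males were again 8 higher and 3 lower, where 1428 and 1556 of 11800 genes were. Each called member kept its call. Without CV male 1 the counts were 6 and 3, where 965 and 1225 of 11856 genes were. Slc25a33, Slc25a34, Slc25a47 and Slc25a25 then lost their calls. Slc25a4 was newly called higher (1.10, adjusted p = 0.0212) and Slc25a22 lower (-1.49, adjusted p = 0.0136).

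The libraries of GF and CV did not overlap for 17 of the 34 members in males, where this held for 43.0% of all genes, and for 24 in females, where it held for 64.9%. Without CV male 3 it held for 21 members in males and 50.7% of all genes. Averaged over both sexes, 18 members were higher, where 32.3% of all genes were, and 5 were lower, where 28.7% were. Against the calls in females, Slc25a25 and Slc25a45 were not called over both sexes, Slc25a34 and Slc25a46 were called higher, and Slc25a38 was called lower.

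By sex, 7 members were called higher in both (13.0% of all genes were) and 2 lower in both (14.1%). Another 10 were called higher in females and not called in males (16.8%), 2 were lower in females and not called in males (11.9%) and 1 was higher in males and not called in females (1.04%). Lower in males and not called in females were 0 (1.31%). In neither sex were 11 called (41.9%). Slc25a25 was called in opposite directions and was the 1 gene of all 11782 with such calls (0.00849%). The change was above that in males for 23 of the 34 members in females, where this held for 53.2% of all genes. The test of the difference between the sexes, the interaction of condition and sex, called 0 members in limma, where 0% of all genes were called. Without adjustment 7 members had p under 0.05, as did 1382 of all 11782 genes. edgeR also called 0 members and DESeq2 called 1, Slc25a25.

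**Figure D2:**
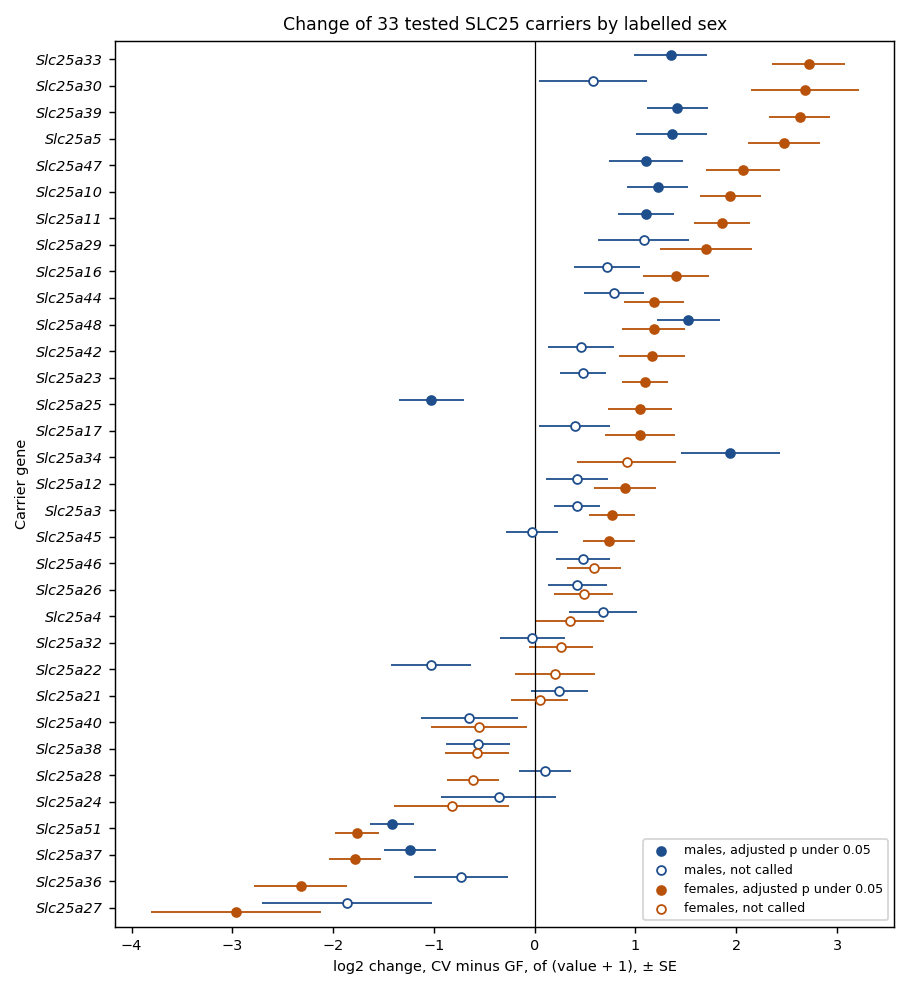
Log2 change of normalized counts plus 1 between CV and GF for 33 of the 34 tested carriers, in males (blue) and females (orange), with bars of 1 SE. Filled points have an adjusted p under 0.05 in limma. Slc25a33, Slc25a39 and Slc25a5 stand to the right in both sexes, Slc25a51 and Slc25a37 to the left in both, and Slc25a25 on opposite sides, while limma called 0 of the 34 once the mitochondrial rRNA share of each library was a covariate.

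The CV males were not alike. CV male 1 was the highest CV male for 26 of the 34 members, where it was for 43.5% of all genes tested. CV male 2 and CV male 3 were both below all CV females for 17 members and for 26.6% of all genes. Without CV male 3 the male log2 changes of Slc25a24, Slc25a28 and Slc25a45 were -0.86, 0.29 and 0.04, in place of -0.36, 0.10 and -0.03, and limma called them in neither case. CV males 2 and 3 are also the CV libraries with more reads in the 7 abundant loci, and the part of that share in the carriers' values was not tested.

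**Figure D3:**
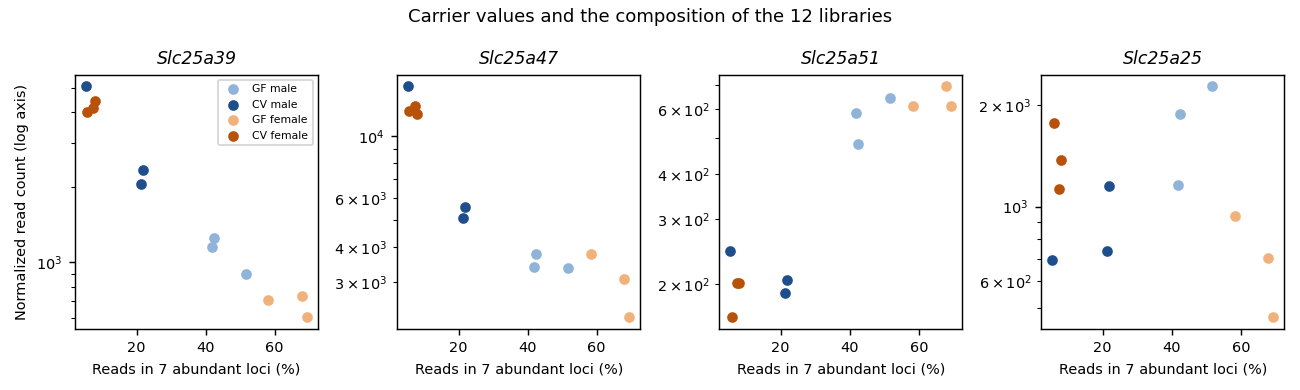
Normalized counts (log axis) of 4 carriers against the percentage of reads in 7 abundant loci, with 1 point per library. Slc25a39 and Slc25a47 are lowest in the GF libraries, which hold 41.8% or more of reads in these loci, and CV male 2 and CV male 3 lie between, while Slc25a51 is higher in all GF libraries and Slc25a25 follows neither order.

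Among the carriers of nucleotides and phosphate, 8 of 11 members were tested. In males 2 were higher and 1 lower, and in females 5 were higher and 1 lower. Beside these and the class counts below stand 14.1% higher and 15.4% lower of all genes in males, and 29.8% and 26.0% in females. Slc25a5 encodes ADP/ATP carrier 2, the widespread form that exports ATP made in the matrix. It lies at chrX:36795651-36798807 on GRCm38, by the GENCODE annotation used for all positions of genes here. Its values in libraries 1, 2 and 3 were 1271, 2755 and 1927 in GF males and 7480.5, 3407 and 4464 in CV males. GF females had 940.4, 1540.1 and 736 and CV females 5559.6, 5794 and 5696. All CV libraries were above all GF libraries, and the CV females lay close together. Its log2 change was 1.36 ± 0.35 (SE, 2.56-fold higher, adjusted p = 0.0111) in males and 2.47 ± 0.35 (SE, 5.56-fold higher, adjusted p = 4.2e-05) in females. In males the call was lost without GF male 1 (1.07, adjusted p = 0.068). Slc25a5 has processed copies in the mouse genome, so part of its reads may be uncertain in placement. Slc25a4, the ADP/ATP carrier 1 of heart and muscle, was far lower per kilobase, at 31.9 against 2105. In GF females its mean was 67.1 ± 13.8 (SD, n = 3) and in CV females 86.6 ± 23.2 (SD, n = 3). It passed the test in neither sex.

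Slc25a33 (chr4:149744036-149774277) and Slc25a36 (chr9:97074961-97111157) both carry pyrimidine nucleotides, which the matrix needs for its own DNA and RNA. The values of Slc25a33 were 77.9, 42.6 and 115 in GF males and 245, 179 and 148 in CV males. Values in GF females were 40.8, 63.8 and 26.8, and in CV females 233, 256 and 356. CV was above GF in every library of each sex. This gave a log2 change of 1.35 ± 0.36 (SE, 2.55-fold higher, adjusted p = 0.0126) in males and 2.72 ± 0.36 (SE, 6.58-fold higher, adjusted p = 2.5e-05) in females, and in males the call was lost without CV male 1 (1.15, adjusted p = 0.0577). An antisense gene, Gm13068, overlaps 14.9% of the exon bases of Slc25a33 on the other strand, and whether counting used strand is not given in the sources used here.

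Slc25a36 went the other way in females. Its values there were 67.9, 63.8 and 88.2 in GF and 12.6, 16.1 and 12.6 in CV, a log2 change of -2.32 ± 0.47 (SE, 5.00-fold lower, adjusted p = 0.000595). In males the values were 31.3, 14.6 and 53.9 in GF and 8.33, 21.5 and 28.2 in CV, and the groups overlapped (adjusted p = 0.251). The values rested on few reads, 11 to 46 per library.

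The bases before the start sites of this pair, and of Slc25a25, are shown because Slc25a33 and Slc25a36, of like substrate, were called in opposite directions in CV females, and Slc25a25 was called in opposite directions in the sexes. They were taken from RefSeq on GRCm38.p6, 5′ to 3′ along each gene, with bases at or past either the RefSeq or the GENCODE start trimmed. All 3 genes lie on the minus strand. The windows are chr4:149774278-149774517 for Slc25a33, chr9:97111158-97111291 for Slc25a36 and chr2:32451471-32451720 for Slc25a25, which has 3 RefSeq windows. Capitals mark CCAAT or its reverse ATTGG, the letters bound by NFY, and TGACGTCA, the cAMP response element (CRE).
Slc25a33: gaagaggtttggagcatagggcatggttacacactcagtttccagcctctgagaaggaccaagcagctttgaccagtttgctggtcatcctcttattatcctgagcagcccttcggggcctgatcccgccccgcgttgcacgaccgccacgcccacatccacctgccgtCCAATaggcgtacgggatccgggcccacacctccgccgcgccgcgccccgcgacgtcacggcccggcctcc
Slc25a36: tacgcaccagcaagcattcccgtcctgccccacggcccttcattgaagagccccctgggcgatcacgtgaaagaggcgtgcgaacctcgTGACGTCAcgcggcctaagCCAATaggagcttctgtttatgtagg
Slc25a25: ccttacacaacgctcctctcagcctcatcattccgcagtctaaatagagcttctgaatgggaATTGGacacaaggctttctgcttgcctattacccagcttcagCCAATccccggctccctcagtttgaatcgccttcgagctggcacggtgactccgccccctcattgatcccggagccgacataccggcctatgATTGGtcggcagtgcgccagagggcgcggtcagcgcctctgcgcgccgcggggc

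In Slc25a33 the CCAAT began 81 bases before the RefSeq start. In Slc25a36 the TGACGTCA began 161 bases and the CCAAT 142 bases before it. Slc25a25 held CCAAT or ATTGG 3 times in the window shown, and a TGACGTCA in another of its windows. RefSeq windows were at hand for 32 of the 43 members. TGACGTCA stood in those of 2 members (6.25%) and of 1.77% of all 27025 genes, read on both strands over all windows of a gene. CCAAT or ATTGG stood in 16 members (50%) and 37.5% of all genes. The core of the NRF1 motif, GCGCATGC or its reverse, stood in 2 members (6.25%) and 2.56% of all genes, and the ERR motif TCAAGGTCA or its reverse in 0 members and 0.42% of all genes. These matches are descriptions of letters. The median GC content of the windows was 56.4% for the members and 52.4% for all genes.

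Slc25a25, Slc25a23 and Slc25a24 are ATP-Mg/phosphate carriers that calcium switches on, and they set the size of the adenine nucleotide pool in the matrix. Slc25a25 (chr2:32414487-32451445), singled out after its values had been seen, was the only member called in opposite directions. In males the values were 2281, 1878 and 1156 in GF and 692, 736 and 1147 in CV. In females they were 940.4, 705 and 469.6 in GF and 1777, 1125 and 1371 in CV. All GF males were above all CV males, with little between the lowest GF male and the highest CV male, and all GF females were below all CV females. On the log2 scale it changed by -1.03 ± 0.32 (SE, 2.04-fold lower, adjusted p = 0.026) in males and 1.04 ± 0.32 (SE, 2.06-fold higher, adjusted p = 0.0114) in females. The difference between the sexes was -2.07 ± 0.45 (SE), with an adjusted p of 0.417 in limma over all genes. DESeq2 gave -2.06 with an adjusted p of 0.0062. In males the call was lost without GF male 1, GF male 2, CV male 1 or CV male 2 (-0.96 to -0.82, adjusted p of 0.0576 to 0.123). Without CV male 3 the male change was -1.25, and the difference between the sexes was -2.30. In females it was lost without GF female 3 (0.78) or CV female 1 (0.87). The male call was lost with values scaled to all reads (-0.71, adjusted p = 0.114) and the female call with values scaled to reads outside the 7 abundant loci (0.42, adjusted p = 0.277).

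Slc25a23 was higher in CV females at 1.09 ± 0.23 (SE, 2.13-fold higher, adjusted p = 0.000815) and its male change was 0.48 (adjusted p = 0.123). Slc25a24 had 4.68 to 21.1 normalized counts and was called in neither sex. Slc25a3, the phosphate carrier that feeds ATP synthase, was higher in CV females, 0.77 ± 0.23 (SE, 1.71-fold higher, adjusted p = 0.00891). Its values there were 1312, 1436 and 1648 in GF and 2508, 2419.7 and 2540.2 in CV, and its change in males was 0.42 (adjusted p = 0.176).

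**Figure D4:**
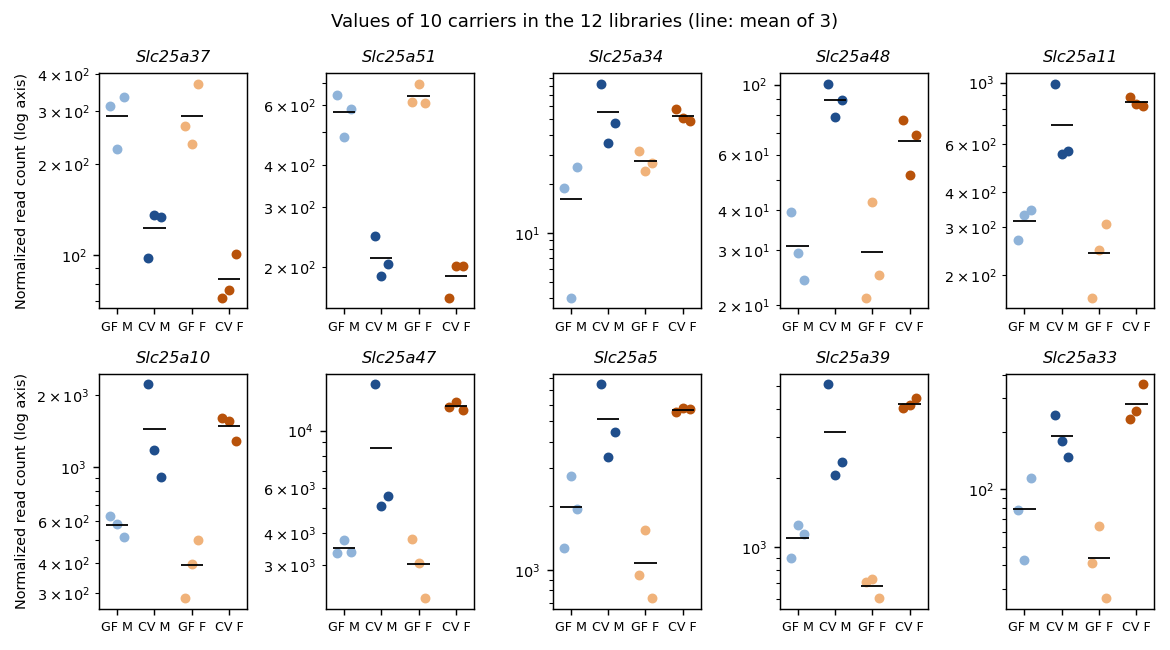
Normalized counts (log axis, a scale for each panel) of the 10 carriers with the smallest adjusted p in males or in females, in every library, with a line at each mean of 3. Slc25a37 and Slc25a51 are higher in GF of both sexes, the other 8 are higher in CV, and CV male 1 is the highest CV male for 9 of the 10.

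The carriers of keto acids and amino acids had 8 tested members of 10. In males 2 were higher and 0 lower, and in females 5 were higher and 0 lower. Slc25a10 (chr11:120491840-120499187) exchanges malate or succinate for phosphate. Its values were 629, 584 and 514 in GF males and 2216, 1183 and 914 in CV males. GF females had 287, 396 and 498 and CV females 1599, 1559.8 and 1290.3. The groups did not overlap in either sex. The log2 change was 1.22 ± 0.30 (SE, 2.33-fold higher, adjusted p = 0.00862) in males and 1.94 ± 0.30 (SE, 3.84-fold higher, adjusted p = 7.9e-05) in females.

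Slc25a11 (chr11:70644196-70647479), the oxoglutarate carrier, and an aspartate/glutamate carrier form the inner membrane side of the malate-aspartate shuttle. Slc25a12 is 1 such carrier, and Slc25a13, that of liver, is among the carriers left out. Slc25a11 had values of 269.5, 333 and 346 in GF males and 989, 553 and 564 in CV males. Values in GF females were 166, 247 and 309, and in CV females 888, 834 and 826. Every CV library was above every GF library. Its log2 change was 1.10 ± 0.28 (SE, 2.15-fold higher, adjusted p = 0.00898) in males and 1.86 ± 0.28 (SE, 3.63-fold higher, adjusted p = 5.3e-05) in females. Rnf167 overlaps 8.9% of the Slc25a11 exon bases on the other strand. Slc25a12 was higher in CV females at 0.90 ± 0.31 (SE, 1.86-fold higher, adjusted p = 0.0214), with a male change of 0.42 (adjusted p = 0.316). Its call in females was lost without GF female 1 (0.63) or CV female 1 (0.72).

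Also higher in CV females were Slc25a29, a carrier of basic amino acids, at 1.70 ± 0.45 (SE, 3.25-fold higher, adjusted p = 0.00461), and Slc25a44, a carrier of branched-chain amino acids, at 1.18 ± 0.30 (SE, 2.27-fold higher, adjusted p = 0.00318). Their male changes were 1.08 (adjusted p = 0.0809) and 0.78 (adjusted p = 0.0577). Slc25a22, the main glutamate carrier, was called in neither sex, though 6 of the alternatives called it lower in males (-1.49 to -1.03). Its values were 3448, 2039 and 3530.2 in GF males and 2733, 1079 and 992 in CV males, where CV male 1 lay among the GF males and the other CV males below them. Its log2 change was -1.03 (adjusted p = 0.0619) in males and 0.20 (adjusted p = 0.684) in females. Slc25a38, needed for glycine entry in heme synthesis, had log2 changes of -0.56 (adjusted p = 0.188) and -0.57 (adjusted p = 0.135), and the male one was -0.27 (adjusted p = 0.568) without CV male 3. Slc25a21, an oxodicarboxylate carrier of lysine breakdown, had log2 changes of 0.24 (adjusted p = 0.538) and 0.05 (adjusted p = 0.889).

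All 7 cofactor carriers were tested. In males 0 were higher and 1 lower, and in females 3 were higher and 1 lower. The lower one was Slc25a51 (chr4:45395923-45408766), which brings NAD into the matrix. Its values were 646, 483 and 587 in GF males and 247, 188 and 204 in CV males. In females they were 614, 694 and 611 in GF and 162, 202 and 202 in CV. Every GF library was above every CV library of either sex. This gave a log2 change of -1.42 ± 0.22 (SE, 2.67-fold lower, adjusted p = 0.000836) in males and -1.76 ± 0.22 (SE, 3.39-fold lower, adjusted p = 1.6e-05) in females. It kept its call without any single library and under each scaling, but not with the mitochondrial rRNA share as a covariate (-1.52 in males and -2.00 in females).

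The 3 higher in CV females were Slc25a16, a relative of the coenzyme A carriers (1.40, adjusted p = 0.00194), Slc25a42, which carries coenzyme A (1.17, adjusted p = 0.00636), and Slc25a17, the peroxisomal carrier of coenzyme A, FAD and NAD (1.04, adjusted p = 0.0185). Their male changes were 0.71 (adjusted p = 0.111), 0.46 (adjusted p = 0.297) and 0.40 (adjusted p = 0.411). Without CV male 3 the male changes of Slc25a17 and Slc25a42 were 0.83 (adjusted p = 0.0659) and 0.76 (adjusted p = 0.103), and without CV male 1 they were -0.14 and 0.06. CV male 1 had 531 normalized counts of Slc25a17, where CV males 2 and 3 had 218 and 137, the first within the range of the GF males and the second below it. In females its call was lost without GF female 1 (1.02) or CV female 1 (0.96). Slc25a26 (S-adenosylmethionine) and Slc25a32 (folate and FAD) were called in neither sex, with log2 changes between -0.0228 and 0.49.

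Of the 4 carriers of iron and glutathione, 1 was higher and 1 lower in each sex. Slc25a39 (chr11:102402985-102407946) imports glutathione, the main thiol of the cell, into the matrix. Its values were 899.9, 1248 and 1148 in GF males and 5098, 2058 and 2343 in CV males. GF females had 706, 731 and 604 and CV females 4017, 4160.2 and 4436. The groups were apart in both sexes. On the log2 scale it changed by 1.42 ± 0.30 (SE, 2.67-fold higher, adjusted p = 0.00402) in males and 2.63 ± 0.30 (SE, 6.19-fold higher, adjusted p = 9.7e-06) in females, the smallest adjusted p of a higher member in females. Slc25a40, its close relative, had few counts and was called in neither sex, at -0.65 (adjusted p = 0.32) in males and -0.55 (adjusted p = 0.338) in females.

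Slc25a37 (chr14:69241848-69285112), mitoferrin 1, brings iron into the mitochondria of red cell precursors. Its values were 312, 225 and 334 in GF males and 97.3, 136 and 134 in CV males. Values in GF females were 267, 234 and 369.9, and in CV females 71.9, 76.6 and 101. Every GF library was above every CV library. The log2 change was -1.24 ± 0.26 (SE, 2.36-fold lower, adjusted p = 0.00357) in males and -1.78 ± 0.26 (SE, 3.44-fold lower, adjusted p = 4.7e-05) in females. Slc25a28, mitoferrin 2, the form of other cells, was called in neither sex, at 0.10 (adjusted p = 0.795) in males and -0.61 (adjusted p = 0.0526) in females, though 10 of the alternatives called it lower in females (-1.23 to -0.61).

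Erythroid markers were read beside Slc25a37. Of 14 on the list 12 were in the table and 6 were tested, of which 1 was lower in CV males and 4 in CV females, all of them globin genes. Among all genes 15.4% were lower in males and 26.0% in females. The other tested markers were called in neither sex: Alas2, the first enzyme of erythroid heme synthesis, had log2 changes of -0.09 in males and -0.81 in females, and Klf1, an erythroid transcription factor, of 1.00 and 0.14. The summed normalized counts of the list were 2795 to 14067 in GF males, 5305 to 32949 in GF females, 2742 to 3182 in CV males and 934 to 2017 in CV females. Gata1, which defines the lineage, had 0 reads in every library. Hba-a1 in libraries 1, 2 and 3 was 1678, 681 and 3496 in GF males and 367, 693 and 671 in CV males. In GF females it was 1503, 8315 and 1944, and in CV females 207, 511 and 402. Within each condition the males stood in the same order for Hba-a1 and Slc25a37, and the females did not. The part of red cell precursors in the Slc25a37 values was not tested, and in bulk tissue fewer cells of a type and less RNA per cell cannot be told apart.

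Among the relatives of the uncoupling proteins, Slc25a30 (KMCP1) and Slc25a27 (UCP4) were tested. Slc25a30 was higher in CV females at 2.68 ± 0.54 (SE, 6.42-fold higher, adjusted p = 0.000577), with values of 27.2, 2.66 and 13.4 in GF and 78.2, 54.4 and 88.5 in CV. GF female 2 had 1 read of it. The male change was 0.58 (adjusted p = 0.431). Slc25a27, known from brain, had values of 55.9, 5.32 and 67.1 in GF females and 4.63, 4.70 and 0.60 in CV females. It passed the filter on low values through the GF libraries alone, so its place among the 4 lower members in females was open to that filter, and 3 were lower without it. The CV female libraries had 1 to 11 reads of it, and the GF values were far apart from each other.

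The last group holds Slc25a46 and the carriers whose substrate is not settled. Of 8, 5 were tested, and 3 were higher and 0 lower in each sex. Slc25a47 (chr12:108836046-108856815) had values of 3359, 3775 and 3386 in GF males and 15118, 5087 and 5580.1 in CV males. In females they were 3783, 3069.6 and 2243 in GF and 12343, 12868 and 11994 in CV. CV females were well above GF females, CV male 1 was the highest of all libraries, and CV males 2 and 3 lay nearer to the GF males, above them. Its log2 change was 1.11 ± 0.37 (SE, 2.15-fold higher, adjusted p = 0.034) in males and 2.06 ± 0.37 (SE, 4.18-fold higher, adjusted p = 0.000242) in females. In males it was 0.61 (adjusted p = 0.114) without CV male 1, and the call was also lost without GF male 1 (adjusted p = 0.101) or GF male 3 (adjusted p = 0.0953).

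Slc25a48 (chr13:56438355-56474239), which has been linked to choline transport, had values of 39.4, 29.3 and 24.1 in GF males and 100.4, 78.7 and 89.0 in CV males. GF females had 21.1, 42.6 and 24.9 and CV females 77.4, 51.7 and 69.2. CV was above GF throughout. This gave a log2 change of 1.52 ± 0.31 (SE, 2.87-fold higher, adjusted p = 0.00317) in males and 1.18 ± 0.31 (SE, 2.26-fold higher, adjusted p = 0.00447) in females, and the interaction did not pass (0.34, adjusted p = 0.729). Slc25a34 (chr4:141618824-141623821) had values of 18.8, 3.99 and 25.5 in GF males and 82.2, 35.8 and 47.2 in CV males, and 31.7, 23.9 and 26.8 in GF females and 57.6, 51.1 and 48.8 in CV females. GF male 2 had 3 reads of it. On the log2 scale it changed by 1.94 ± 0.49 (SE, 3.83-fold higher, adjusted p = 0.00952) in males and 0.91 (adjusted p = 0.123) in females, and the male call was lost without CV male 1 (1.61, adjusted p = 0.0514). The difference between the sexes was 1.02 (adjusted p = 0.525).

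Slc25a45 was higher in CV females at 0.74 ± 0.26 (SE, 1.67-fold higher, adjusted p = 0.0221) and its male change was -0.03 (adjusted p = 0.949). The female call was lost without GF female 3 (0.72), CV female 2 (0.68) or CV female 3 (0.74). Slc25a46, an outer membrane protein that acts in mitochondrial fusion and fission, was called in neither sex, at 0.48 (adjusted p = 0.18) in males and 0.59 (adjusted p = 0.068) in females.

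Carriers of like substrate were then compared within each library, which takes out the scaling of the library. It leaves in any trend on transcript length and GC content, which differ within each pair. The 6 pairs were chosen after the data had been seen, so their log2 ratios are a description, with no test. The ratio of Slc25a33 over Slc25a36 had a mean of 1.28 in GF males, 3.36 in CV males, -0.80 in GF females and 4.24 in CV females. That is a difference of 2.08 in males (2.58 without CV male 3 and 1.40 without CV male 1) and 5.04 in females. Slc25a39 over Slc25a40 differed by 2.06 in males and 3.18 in females, and Slc25a28 over Slc25a37 by 1.34 and 1.17. For these 3 pairs the ratio was higher in every CV library than in every GF library of its own sex. With a trend on length and GC content removed, the female log2 changes were 1.95 for Slc25a33 and -1.77 for Slc25a36. They were 1.86 for Slc25a39 and -0.11 for Slc25a40, and -0.70 for Slc25a28 and -1.23 for Slc25a37. In males they were 0.92 and -0.45, 0.98 and -0.44, and 0.10 and -0.91. The mitoferrin ratio lay between -1.85 and -1.26 in GF males and between -0.67 and 0.26 in CV males. It lay between -1.10 and -0.61 in GF females and between -0.13 and 0.48 in CV females. GF females and CV males thus overlapped.

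Slc25a5 over Slc25a4 differed by 0.68 in males, where the groups overlapped, and by 2.12 in females. Without CV male 1 the male difference was -0.05. Slc25a23 over Slc25a24 differed by 0.84 in males, with overlap, and by 1.92 in females. The male difference was 1.39 without CV male 3 and 0.36 without CV male 1. Slc25a23 over Slc25a25 differed by 1.51 in males, with no overlap, and by 0.05 in females, with overlap. Where a member of a pair has few reads, as Slc25a24, Slc25a36 and Slc25a40 do, the ratio depends on those reads.

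**Figure D5:**
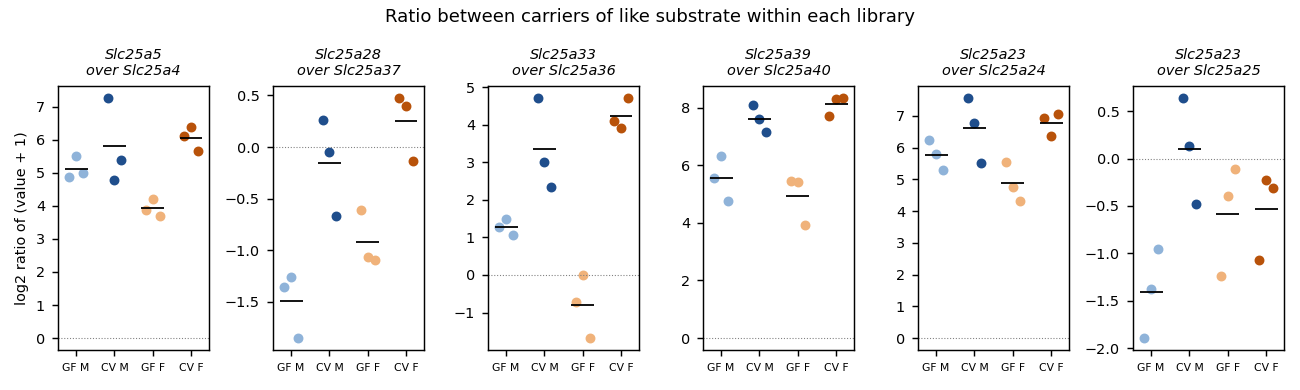
Log2 ratio of normalized counts plus 1 between 2 carriers of like substrate in each of the 12 libraries, with a line at each mean of 3. The ratio of Slc25a33 to Slc25a36 spans 1.08 to 1.48 in GF males and 2.35 to 4.72 in CV males. It spans -1.68 to 0 in GF females and 3.91 to 4.71 in CV females. The ratio of Slc25a23 to Slc25a25 differs between GF and CV in males more than in females.

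Genes around the carriers were counted from lists written with the results known. The 4 carriers left out (citrate, aspartate/glutamate of liver, ornithine and acylcarnitine) were higher in CV for 2 of 4 in males and 4 of 4 in females. Of 3 tested relatives outside the SLC25 names, Ucp2, Mtch1 and Mtch2, all were higher in both sexes, and Ucp1 had 0 reads. Of the 13 genes of the import route of the carriers 3 were higher in males and 10 in females, beside 14.1% and 29.8% of all genes. Tomm22, a receptor of the outer membrane, changed by 0.85 in males and 1.59 in females, and Timm29, a part of the TIM22 complex, by 1.13 and 1.86. In these lists 0 genes were called lower in limma in either sex.

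The enzymes that work with Slc25a11 and the aspartate/glutamate carriers in the malate-aspartate shuttle were higher for 3 of 4 in males and 4 of 4 in females. Mdh2, the matrix malate dehydrogenase, changed by 1.44 in males and 2.71 in females, and Got2, the matrix aspartate aminotransferase, by 1.14 and 2.20. Of 4 outer membrane proteins, the metabolite channels Vdac1, Vdac2 and Vdac3 and the ligand-binding Tspo, all were higher in both sexes, with Vdac1 at 1.28 and 2.03. Of the pyruvate carrier and the sideroflexins 2 of 6 were higher in males and 3 in females, led by Mpc1, a subunit of the pyruvate carrier, at 1.51 and 3.18. Of the calcium uniporter list 1 of 7 was higher in males, and in females 5 were higher and 1, Micu3, was lower. Beside these counts, 14.1% of all genes were higher in males and 29.8% in females, and 26.0% were lower in females. All these changes are on the log2 scale of normalized counts plus 1. The counts moved with the scaling, as did those of all 11782 genes. Scaled to all reads, 2824 genes were higher in males and 5832 in females. Scaled to reads outside the 7 abundant loci, 875 and 1857 were. With values scaled to all reads, the import route had 9 higher in males and 12 in females and the calcium uniporter list 5 and 6. With values scaled to reads outside the 7 abundant loci, the import route had 1 and 9, the calcium uniporter list 0 and 2, and the carriers left out 2 of 4 in either sex. The outer membrane proteins and Ucp2, Mtch1 and Mtch2 were higher in both sexes under both scalings.

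Markers of other cells were read in the same fit. Beside their counts stand 14.1% higher and 15.4% lower of all genes in males, and 29.8% and 26.0% in females. Hepatocyte markers were called higher for 0 of 9 in males and 6 of 9 in females, with a median log2 change of 0.59 and 1.47. Tat and Cps1 were called in neither sex, at -0.997 and -0.38 in males and 0.48 and -0.30 in females. The part of these markers in the result was not tested. Leukocyte markers were higher for 1 and lower for 2 of 7 in males, and higher for 1 and lower for 3 in females. Summed over 10 markers they ran from 962 to 2189 normalized counts. Of 7 muscle markers 0 were tested and Ckm, Mb and Myh1 had 0 reads. Of 5 adipose markers only Cidec, which hepatocytes also express, was tested, and Lep had 0 reads.

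The scaling of the libraries bore on every change. Scaled to all reads, the median log2 change of all genes was 0.37 in males and 0.86 in females. Scaled to the reads outside the 7 abundant loci, it was -0.23 in males and -0.53 in females. A scaling shifts the log2 changes of all genes nearly alike, so the median of the tested members minus that of all genes could hardly move. It was near 0.36 in males and between 0.75 and 0.77 in females under these scalings and the deposited one. In males it was 0.24 without CV male 1, and in females 0.66 among genes of a mean of at least 50. Outside the 7 loci the counts were 7 higher and 4 lower in males and 9 higher and 7 lower in females. Of all 11782 genes, 875 were then higher and 2244 lower in males, and 1857 higher and 4648 lower in females. The 9 female calls lost were Slc25a3, Slc25a12, Slc25a17, Slc25a25, Slc25a29, Slc25a42, Slc25a44, Slc25a45 and Slc25a48, at 0.12 to 1.12, and in males Slc25a47 was lost at 0.81. With the mitochondrial rRNA share of each library as a covariate, limma called 0 members in either sex and the female median was -0.24. That share and the groups overlap closely, with 93.5% of its variance between groups, so they cannot be told apart.

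Transcript length and GC content went with the change as well. Over the 34 members, Spearman's correlation of the log2 change with transcript length was -0.55 in males and -0.50 in females, and with GC content it was 0.43 and 0.41. Over all genes it was -0.36 and -0.42 with length and 0.11 and 0.16 with GC content. These are correlations across genes of the same libraries, given as descriptions. After a trend on length and GC content was removed within each library, 5 members were higher and 4 lower in males. In females 17 were higher and 7 lower. Of 11731 genes, 1448 were then higher and 1412 lower in males, and 3187 and 2663 in females.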

How the data were processed

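RNA of 12 snap-frozen mouse livers was made into stranded mRNA libraries and sequenced, per the labels. The deposited unit is a normalized signal per gene: the authors counted reads with HTSeq 0.6.1p1 on GRCm38 and divided each library by a DESeq2 size factor, per the submitters' processing notes and the values. All values (100%) came out as whole reads times a step per library, within 0.01 reads, and the reads could thus be recovered for count tests. The aligner, annotation and strand setting are not given in the sources used here. The paper linked to the series describes another experiment, and no method was taken from it.

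Groups and replicate numbers were read from the sample titles. limma 3.58.1 (R 4.3.3) was run on log2(value + 1) for 11782 genes of mean value at least 10, with a mean for each of 4 groups of 3 libraries, an empirical Bayes variance trend and Benjamini-Hochberg adjustment over all genes, at a threshold of 0.05. Fold changes are on that scale, on which a change in a low gene comes out too small. The test was checked on simulated data. Alternatives were edgeR 4.0.16, DESeq2 1.42.0 and voom on the recovered reads, other filters, pseudocounts, scalings and thresholds, thinning to 5993619 reads, removal of a trend on length and GC content, a covariate and each library left out. Ratios within libraries were not tested. SEs from limma and SDs measure the spread between libraries. The limit of 3 reads for a gene at 0 covers counting error only.

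The members, classes, lists and tests were chosen with earlier results of these data known. Library by library values are given for the 8 members with the smallest adjusted p in each sex, 10 in all. Genes of the lists were named by value where called in both sexes or where they define a cell type. Any other gene given by value was chosen after its values were seen. The labels do not say that numbers in the titles pair the libraries, and the main fit did not pair them. A planned count of a letter pattern in the carrier proteins was not run. The values of 1 tested member are not reported here, though the counts include it.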

Additional observations from a re-analysis of the deposited data

Results flagged for a closer look

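Slc25a25, a calcium-regulated carrier of ATP-Mg and phosphate, drew attention because every CV male was below every GF male while every CV female was above every GF female. The difference between the sexes in the log2 change was -2.07 (adjusted p = 0.417 in limma over all genes). CV male 3, which had 0 Y-linked reads, was the highest CV male at 1147 normalized counts, just under GF male 3 at 1156.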

How the results depend on the processing

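Of 296 recomputed values for members called in males, 264 kept their call and 32 kept only their direction. Of 590 in females, 541 kept their call, 40 kept only their direction and 9 reversed, all of the latter with the mitochondrial rRNA share of each library as a covariate. These were Slc25a42 (-1.43), Slc25a11 (-0.32), Slc25a17 (-2.23), Slc25a45 (-1.03), Slc25a10 (-0.37), Slc25a12 (-0.0211), Slc25a47 (-0.41), Slc25a44 (-0.65) and Slc25a3 (-0.0764). That covariate gave 0 members higher and 0 lower in males, in females and over both sexes, and medians of 0.051 in males and -0.24 in females. Since 93.5% of its variance lies between the groups, this says nothing of stability. The main counts were 8 higher and 3 lower in males, 18 and 4 in females, and 18 and 5 over both sexes.

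DESeq2 gave 5 lower in males, where it called 2213 of 22953 genes lower. Values scaled to all reads gave 15 higher in males, where 2824 of 11782 genes were. The female median was 1.64, beside 0.86 over all genes. Values scaled to reads outside the 7 abundant loci gave 9 higher and 7 lower in females, 10 lower over both sexes and a female median of 0.22. Of all 11782 genes, 1857 were then higher and 4648 lower in females, and 4863 were lower over both sexes. Removal of the trend on length and GC content gave 5 higher in males and 7 lower in females, where 1448 and 2663 of 11731 genes were. A threshold of 0.01 gave 5 higher in males, where 588 of 11782 genes were. A mean value of at least 50 gave 3 lower over both sexes, where 2251 of 8255 genes were. A difference between the sexes was called for 1 member, Slc25a25, by DESeq2. It was called for 1, again Slc25a25, with values scaled to all reads (-2.57, adjusted p = 0.0476). Over all genes, DESeq2 called 12 positive and 14 negative differences among 22953, and that scaling 0 and 11 among 11782. The cause was not tested. Leaving out each library in turn gave 6 to 9 members higher and 2 to 4 lower in males, 15 to 19 higher and 4 to 6 lower in females, 17 to 19 higher and 4 to 6 lower over both sexes, and 0 to 3 with a difference between the sexes. The 3 were called without CV male 1: Slc25a39 (-1.62), Slc25a25 (-1.94) and Slc25a47 (-1.46). In that fit 100 positive and 182 negative differences were called among 11856 genes. Across the omissions, 725 to 1912 of all genes were higher and 870 to 1965 lower in males. In females 2964 to 3717 were higher and 2586 to 3285 lower. Over both sexes 3492 to 3963 were higher and 3084 to 3466 lower. The medians ranged from 0.29 to 0.52 in males and from 0.74 to 0.86 in females.

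With the replicate block, 7 members were higher and 4 lower in males and 17 higher and 4 lower in females. Over both sexes 18 and 5 were, and 0 in the difference. Of all 11782 genes, 1212 were higher and 1391 lower in males, and 3295 and 2818 in females. Over both sexes 3639 of all genes were higher and 3188 lower, and 0 were called in the difference. Libraries of the same number did not deviate together (correlations of -0.23 to 0.02), and the labels name no pairing by number. With so few libraries per group, such correlations cannot exclude one. Of 613 recomputed values for members not called in males 23 were called, and of 319 in females 26 were. Depth limits the members of low level: GF female 2 had 1 read of Slc25a30, and CV female 3 had 1 of Slc25a27.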
